A study of Mus musculus with 12 samples.

Results

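The miR-29 family consists here of the 3 guide strands mmu-miR-29a-3p, mmu-miR-29b-3p and mmu-miR-29c-3p, which were found by their exact names among the 576 entries of the array. All 3 belonged to the 118 miRNAs that could be tested. They were measured in LLC1, an established mouse Lewis lung carcinoma cell line, on Agilent 1-colour miRNA arrays hybridised with Cy3-labelled total RNA. Each of 4 groups had 3 arrays, with 1 sample per array. Control cells were left untreated, while the others were irradiated once with 2 Gy, once with 10 Gy, or on 5 occasions with 2 Gy each (group 5x2 Gy), which adds up to 10 Gy. All groups were the same line without genetic change, grown in the same medium with fetal bovine serum, and RNA was taken 4 h after irradiation. By their labels the samples are biological replicates, with no word on whether they were separate cultures, so the p-values measure the spread between these samples. The design asks how single and fractionated doses differ in their effect on miRNA levels, and here this was asked of the miR-29 guide strands.

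A miRNA guide strand, loaded into an Argonaute protein, pairs mainly through its seed with sites in the 3′ untranslated regions of mRNAs and lowers the output of those mRNAs. The miR-29 family is known for targeting mRNAs of fibrillar collagens, elastin and other matrix proteins, and those of the de novo DNA methyltransferases Dnmt3a and Dnmt3b. In lung and other tissues its levels are known to fall during fibrosis, where TGF-beta signalling lowers them, and low miR-29 has been described in lung cancer. Nothing on collagen or methyltransferase mRNAs was measured in these samples.

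The mature sequences are shown because they determine both what the family shares and how well array probes can tell its members apart. They were taken from RefSeq (build GRCm38.p6), read 5′ to 3′, with the seed, bases 2 to 8, in capitals.
miR-29a-3p: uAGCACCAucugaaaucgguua
miR-29b-3p: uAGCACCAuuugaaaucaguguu
miR-29c-3p: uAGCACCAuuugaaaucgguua
The seed AGCACCA was identical in the 3 strands, and no other entry among the 1679 mature mouse sequences in the table carried it. Positions are counted from 1 at the 5′ end of the first-named strand. miR-29a-3p and miR-29c-3p differed at 1 of 22 positions, C10U. miR-29a-3p and miR-29b-3p differed at 4 of the 22 compared positions, C10U, G18A, U21G and A22U, and miR-29c-3p and miR-29b-3p at 3, G18A, U21G and A22U. All differences therefore lay outside the seed, in the middle and at the 3′ end.

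The hairpins are shown because the guide strands come from 4 genes in 2 pairs of close neighbours in the genome. Letters in capitals mark the guide strand within the hairpin.
Mir29a, chromosome 6, minus strand: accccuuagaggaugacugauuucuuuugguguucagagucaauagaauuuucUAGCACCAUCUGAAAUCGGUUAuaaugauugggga
Mir29b-1, chromosome 6, minus strand: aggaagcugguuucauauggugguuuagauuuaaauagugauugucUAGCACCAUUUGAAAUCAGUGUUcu
Mir29b-2, chromosome 1, plus strand: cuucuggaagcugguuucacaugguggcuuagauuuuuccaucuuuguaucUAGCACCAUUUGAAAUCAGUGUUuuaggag
Mir29c, chromosome 1, plus strand: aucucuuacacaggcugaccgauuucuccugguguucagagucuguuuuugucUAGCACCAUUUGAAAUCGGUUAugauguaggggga
In the RefSeq table of that build, 275 bases lay between Mir29a and Mir29b-1 and 426 bases between Mir29b-2 and Mir29c, with 0 genes listed between either pair. Mir29b-1 and Mir29b-2 gave the same mature letters, so the miR-29b-3p entry sums both loci, while miR-29a-3p reads chromosome 6 and miR-29c-3p reads chromosome 1. The array files name the mm9 build, and no coordinates were carried between builds.

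Levels are log2 of the processed signal relative to the array's own 75th percentile, so 0 is the signal of a bright detected probe on that array. That percentile, called array brightness below, ranged from 110.5 signal units in control replicate 2 to 1102 in 5x2 Gy replicate 2, and between 48 and 137 miRNAs were detected per array. Control replicate 2 stood apart as the dimmest array, and the members' changes against control are given with and without it. Slide 1, with scan 1, held all control and all 2 Gy arrays and 10 Gy replicates 1 and 2, whereas slide 2, with scan 2, held 10 Gy replicate 3 and all 5x2 Gy arrays. None of 5 epithelial miRNAs, the miR-200 family among them, was detected on any array of this carcinoma line, and 5 of 6 miRNAs listed for fibroblasts and endothelium were detected on at least 1 array. Within the latter list miR-199a-3p, miR-199a-5p and miR-214-3p were detected on 12 arrays, miR-143-3p on 7, miR-126a-3p on 3 and miR-145a-5p on 0. Of 5 blood cell miRNAs 2 were detected, miR-142a-3p on 12 arrays and miR-142a-5p on 6, whereas miR-223-3p, miR-451a and miR-150-5p were detected on 0.

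miR-29a-3p, a guide strand of the chromosome 6 pair, stood at 0.93, 0.091 and 0.93 (log2 level) in control replicates 1 to 3 and at 0.58, 1.06 and 0.54 after 2 Gy. After 10 Gy its log2 level was 0.56, 0.58 and 1.23, and after 5x2 Gy it was 1.33, 1.31 and 1.32. Every 5x2 Gy array lay above every array of the other groups, and the low value of the control belonged to the dimmest array. The mean log2 level was 0.65 ± 0.48 (SD, n = 3) in the control, 0.73 ± 0.29 at 2 Gy, 0.79 ± 0.38 at 10 Gy and 1.32 ± 0.01 with 5x2 Gy. The difference between 5x2 Gy and control was 0.67 on the log2 scale (SE 0.27, 95% interval 0.05 to 1.29), or 1.59-fold, and it did not pass the threshold of 0.05 (limma, Benjamini-Hochberg adjusted p = 0.143).

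miR-29b-3p, made by both pairs, stood at -0.05, -0.50 and -0.09 (log2 level) in the control and at -0.21, 0.20 and -0.26 after 2 Gy. After 10 Gy its log2 level was -0.21, -0.33 and -0.01, and after 5x2 Gy it was 0.0048, 0.28 and 0.16. The 5x2 Gy arrays lay above all control and all 10 Gy arrays, but overlapped the 2 Gy group, whose replicate 2 was higher than 5x2 Gy replicates 1 and 3. The mean log2 level was -0.21 ± 0.25 (SD, n = 3) in the control, -0.09 ± 0.26 at 2 Gy, -0.18 ± 0.16 at 10 Gy and 0.15 ± 0.14 with 5x2 Gy. The difference between 5x2 Gy and control was 0.36 on the log2 scale (SE 0.17, 95% interval -0.02 to 0.74), or 1.28-fold, with a limma adjusted p of 0.175.

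miR-29c-3p, the guide strand of the chromosome 1 pair that differs from miR-29a-3p by 1 base, was a dim entry. Its log2 level was -3.21, -3.56 and -3.08 in the control and -3.42, -2.70 and -3.18 after 2 Gy. After 10 Gy it was -3.32, -3.41 and -2.93, and after 5x2 Gy it was -2.64, -2.50 and -2.55. All 5x2 Gy arrays lay above all arrays of the other groups, the nearest being 2 Gy replicate 2. The entry was detected on 10 of 12 arrays and was not above background in control replicate 2 and 10 Gy replicate 2. The mean log2 level was -3.28 ± 0.25 (SD, n = 3) in the control, -3.10 ± 0.36 at 2 Gy, -3.22 ± 0.25 at 10 Gy and -2.56 ± 0.07 with 5x2 Gy. The difference between 5x2 Gy and control was 0.72 on the log2 scale (SE 0.20, 95% interval 0.25 to 1.19), or 1.65-fold, with a limma adjusted p of 0.0515. It ranked 16 of the 118 tested miRNAs by p in this comparison.

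**Figure D1:**
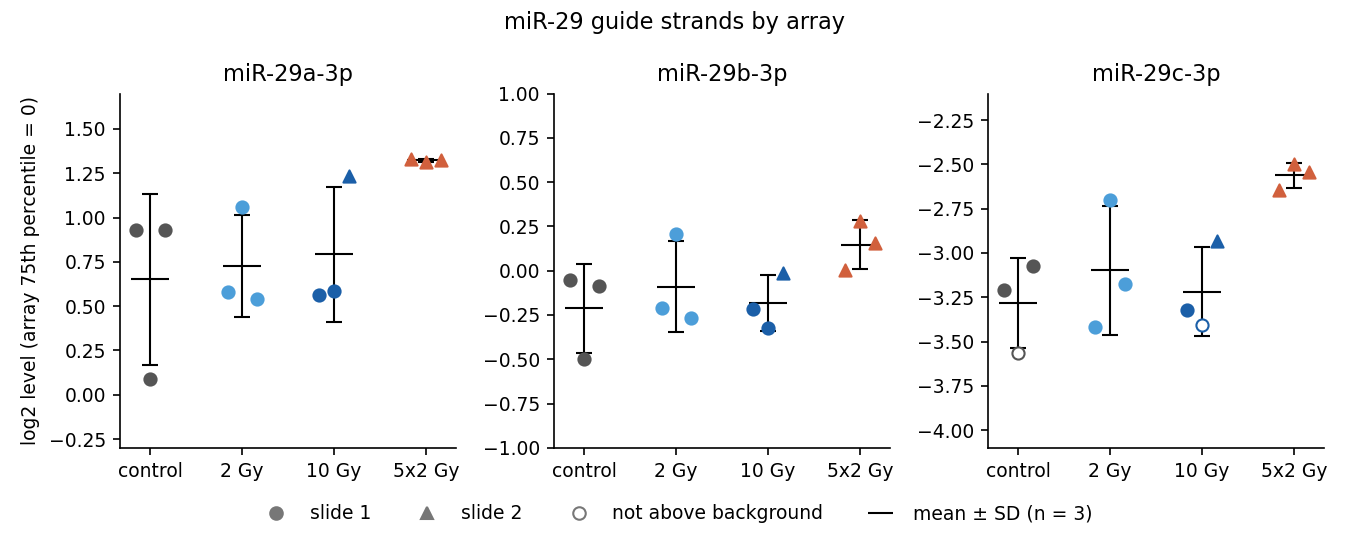
Log2 level of each miR-29 guide strand, relative to the 75th percentile of its array, on all 12 arrays by group. Circles are arrays of slide 1, triangles arrays of slide 2, open circles arrays on which the entry was not above background, and bars mean ± SD (n = 3). The 5x2 Gy arrays are the highest for miR-29a-3p and miR-29c-3p, and 10 Gy replicate 3, the 1 triangle of its group, is the highest 10 Gy array for all 3.

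Thus 0 of the 3 members passed the test between 5x2 Gy and control, where 15 of the 118 tested miRNAs (12.7%) passed, all of them higher. The calls over all miRNAs split, without control replicate 2, into 10 higher and 5 lower, and with normexp into 0 higher and 5 lower. For all 3 the 5x2 Gy and control arrays did not overlap, with 5x2 Gy higher, as was the case for 33 of the 118 (28%). Among all tested miRNAs the median log2 change was 0.0004037, and 0.23 with a floor 4 times lower. Entries at the floor on all arrays of both groups could not be called, yet they count in the 118 and in that median. For the members the median log2 change was 0.67. The direction was kept with quantile scaling, with scaling over all probes and with no scaling, but with normexp background correction, where the median of all 118 miRNAs fell to -0.74, miR-29c-3p was at -0.36, below 0 and above that median, with miR-29a-3p at 0.68 and miR-29b-3p at 0.21. With the floor doubled, which touches the dim miR-29c-3p and neither other member, its change was 0.39 (limma adjusted p = 0.0501). Without control replicate 2 the changes were 0.39, 0.22 and 0.58 for miR-29a-3p, miR-29b-3p and miR-29c-3p, with limma adjusted p of 0.305, 0.460 and 0.107. For miR-29a-3p and miR-29b-3p the value without that array was less than the full value by more than 1.5 times.

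Against the single dose of 10 Gy, which equals the total of the 5 fractions, 5x2 Gy was higher by 0.53 for miR-29a-3p, by 0.33 for miR-29b-3p and by 0.66 for miR-29c-3p on the log2 scale. The limma adjusted p was 0.414, 0.404 and 0.192, so that 0 of 3 members passed, where 3 of 118 miRNAs (2.54%) did. The 5x2 Gy arrays lay above the 10 Gy arrays for all 3 members, as for 30 of the 118 (25.4%). On 10 Gy replicates 1 to 3, 73, 62 and 112 of these 118 were detected, and on each 5x2 Gy array all of them. Within the 10 Gy group, replicate 3, the array on slide 2, was the highest for each member. Against that array alone, the only 10 Gy array on the slide of the 5x2 Gy group, the differences were 0.09, 0.16 and 0.37, with limma adjusted p of 0.0956, 0.761 and 0.191 in a fit of slide 2 that assumes the lone array varies like the 5x2 Gy arrays.

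After the single doses no member passed the test against control, and the arrays of either dose overlapped the control arrays for each member. After 2 Gy the log2 changes were 0.08, 0.12 and 0.18 for miR-29a-3p, miR-29b-3p and miR-29c-3p (limma adjusted p = 1, 0.910 and 0.831). Of the 118 miRNAs, limma called 0 (0%) in this comparison and 11 (9.32%) had an unadjusted p under 0.05. After 10 Gy the log2 changes were 0.14, 0.03 and 0.06 (limma adjusted p = 0.889, 1 and 1), with 0 of 3 members called against 1 of 118 (0.847%). On slide 1 alone, which leaves out 10 Gy replicate 3, these turned to -0.08, -0.06 and -0.08. Without control replicate 2 they were -0.14, -0.11 and -0.08, and the 2 Gy changes were -0.20, -0.02 and 0.04, with no member passing.

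Over all 4 groups the F test of limma gave an adjusted p of 0.352 for miR-29a-3p, 0.422 for miR-29b-3p and 0.174 for miR-29c-3p, where 7 of 118 miRNAs (5.93%) passed. The group means of miR-29a-3p ran from control through 2 Gy and 10 Gy to 5x2 Gy. Those of miR-29b-3p and miR-29c-3p ran from control through 10 Gy and 2 Gy to 5x2 Gy. In each order the first 3 groups overlapped, so their order lay within the spread of the arrays. The step to 5x2 Gy was free of overlap for miR-29a-3p and miR-29c-3p and not for miR-29b-3p.

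Each entry was read by 2 probes of 10 spots each, and the signals are given here before scaling. Processed signal, in linear units, ranged from 85.2 to 2095 for probe A_54_P2488 and from 162.5 to 3644 for A_54_P2489 of miR-29a-3p. For miR-29b-3p it ranged from 33.8 to 575.2 for A_54_P1011 and from 180.5 to 3108 for A_54_P1012. For miR-29c-3p it ranged from 5.02 to 157.6 for A_54_P2492, detected on 7 arrays, and from 13.2 to 240.7 for A_54_P2493, detected on 10. All 6 probes had their lowest signal in control replicate 2, and each had a higher signal on all 5x2 Gy arrays than on any control array. Signals of different probes depend on the probe and were not set against each other.

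**Figure D2:**
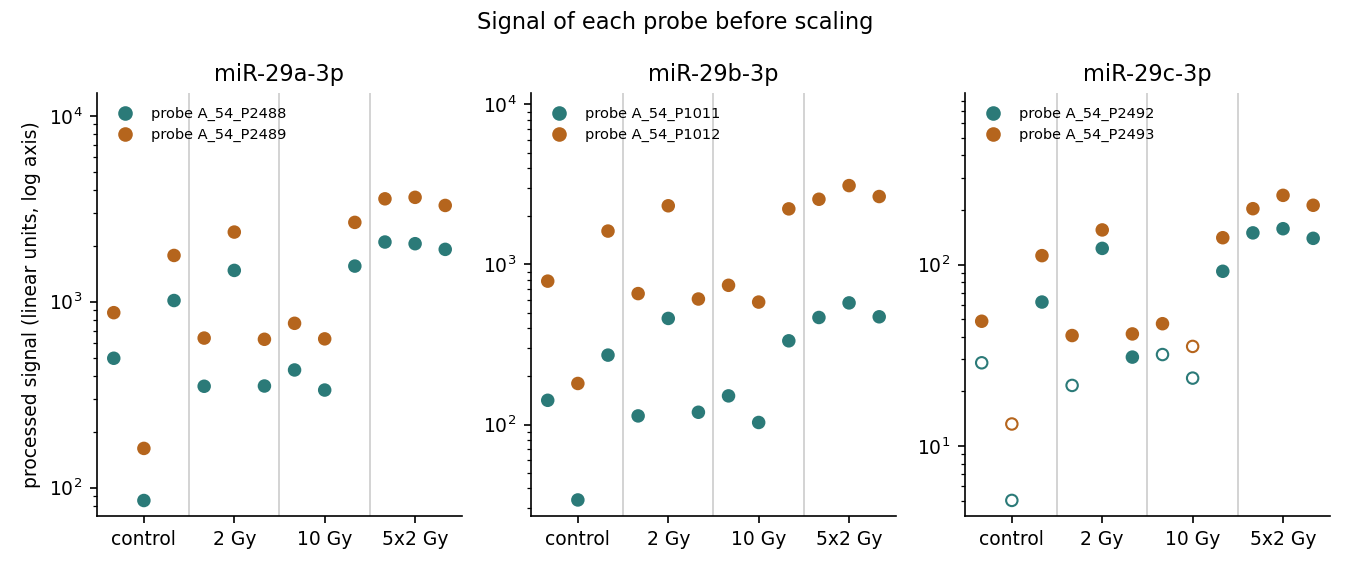
Processed signal before scaling (linear units on a log axis) of the 2 probes of each miR-29 entry, with arrays in the order of replicates 1 to 3 within each group. Filled points are detected and open points are not. Control replicate 2 is the lowest point of every probe, and 5x2 Gy arrays, 2 Gy replicate 2 and 10 Gy replicate 3 are among the highest.

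Taken alone, the probes gave log2 changes between 5x2 Gy and control of 0.70 and 0.64 for miR-29a-3p, 0.37 and 0.35 for miR-29b-3p, and 0.88 and 0.56 for miR-29c-3p. Their limma adjusted p over the 212 probes tested ranged from 0.0642 to 0.258. These changes were, without control replicate 2, 0.40 and 0.38, 0.25 and 0.18, and 0.71 and 0.45, none of them past the threshold (limma adjusted p = 0.106 to 0.627). The probes of miR-29c-3p agreed less after 10 Gy, where A_54_P2492 gave 0.20 and A_54_P2493 gave -0.08. The coefficient of variation of the spots of a probe on an array, without outlier spots, had a median of 9.15% for miR-29a-3p, 8.2% for miR-29b-3p and 22.8% for miR-29c-3p, with a highest value of 82.3% for miR-29c-3p. With probe sequences not used here and 1 base between miR-29a-3p and miR-29c-3p, the share of miR-29c-3p signal that came from miR-29a-3p was not tested.

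Whether the members changed by the same amount was asked from the difference between their log2 levels within each array, in which the scaling cancels except where a probe lies at the floor. This was so for probe A_54_P2492 of miR-29c-3p in control replicate 2. For miR-29b-3p minus miR-29c-3p this was 2.65 to 2.78 on the 5x2 Gy arrays and 2.99 to 3.16 on the control arrays, so the change of miR-29c-3p was larger by 0.36 and the groups did not overlap. For miR-29a-3p minus miR-29b-3p it was 1.03 to 1.33 on the 5x2 Gy arrays and 0.59 to 1.02 on the control arrays, a larger change of miR-29a-3p by 0.31, again without overlap. Both had a 2-sided exact permutation p of 0.1, which is the lowest possible with groups of 3, and 0.45 after adjustment over the 9 differences tested. The changes of miR-29a-3p and miR-29c-3p differed by -0.05 (exact permutation p = 0.8, adjusted 0.9). After 2 Gy and 10 Gy the 6 differences lay between -0.11 and 0.11 (exact permutation p = 0.6 to 0.9). The difference between miR-29b-3p and miR-29c-3p after 5x2 Gy rests on the dim entry: it was -0.36 as reported, -0.033 with the floor doubled and 0.57 with normexp background correction. That between miR-29a-3p and miR-29b-3p was 0.18 without control replicate 2. For this pair 10 Gy replicate 3, on slide 2 like the 5x2 Gy arrays, stood at 1.24, above every slide 1 array. The part of slide in it was not tested.

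**Figure D3:**
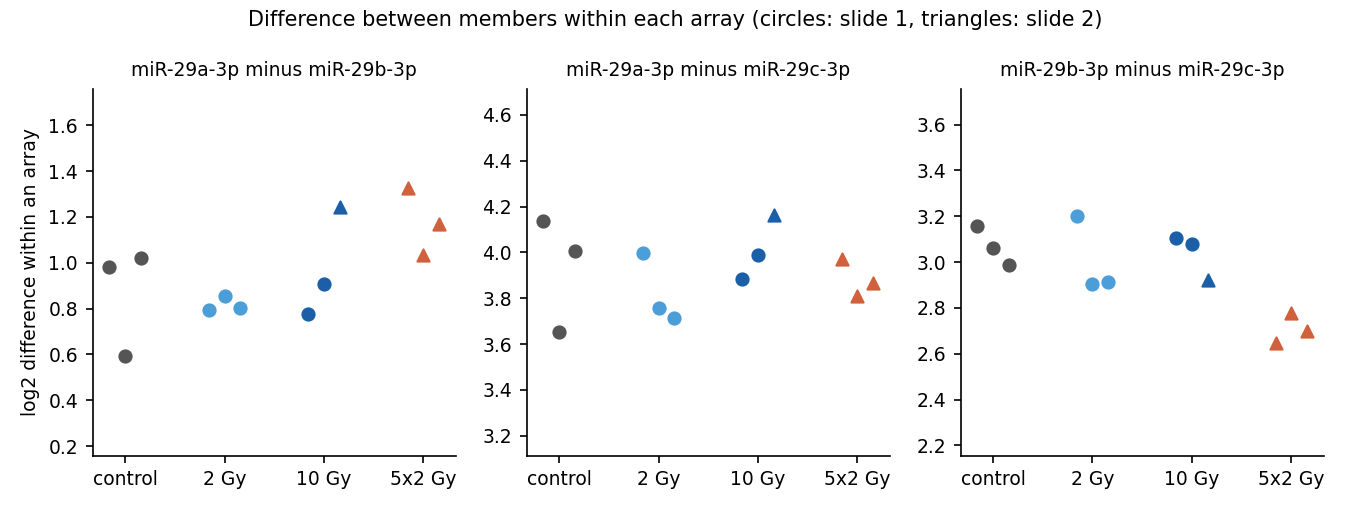
Difference in log2 level between pairs of miR-29 guide strands within each array, by group, with slide 1 as circles and slide 2 as triangles. The sizes of the differences depend on the probes, so only shifts between groups can be read: miR-29b-3p minus miR-29c-3p is lowest on the 5x2 Gy arrays (2.65 to 2.78).

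The members followed array brightness. Over the 12 arrays the log2 level and log2 brightness had a Pearson r of 0.956 for miR-29a-3p, 0.905 for miR-29b-3p and 0.919 for miR-29c-3p, and a Spearman rho of 0.888, 0.923 and 0.958. The permutation p of r was 2e-05, 7e-05 and 2e-05 with 100000 resamples, and 3e-05, 7e-05 and 3e-05 after adjustment over the 3 relations. That of rho was 0.00032, 0.0001 and 2e-05, adjusted 0.00032, 0.00015 and 6e-05. Without control replicate 2 and 5x2 Gy replicate 2, the arrays farthest from the median, r was 0.919, 0.841 and 0.929. Within slide 1, which holds 8 arrays, r was 0.916, 0.896 and 0.877 (exact permutation p = 0.00317, 0.00722 and 0.00885, each 0.00885 after adjustment), and without control replicate 2, over 7 arrays, it was 0.804, 0.838 and 0.887 (exact permutation p = 0.0254, 0.0222 and 0.00893, each 0.0254 after adjustment). Slide 2 holds 4 arrays, too few for a correlation. The level is itself scaled by the percentile that brightness measures.

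Among the 71 tested miRNAs that lay above the floor on all arrays, the median r with brightness was 0.26 and 8 (11.3%) had r above 0.8. The members ranked 1, 4 and 2 of these 71 for miR-29a-3p, miR-29b-3p and miR-29c-3p. All 5x2 Gy arrays were bright, between 1004 and 1102 signal units. Control arrays had 345.9, 110.5 and 703.3. Bright arrays of other groups, 2 Gy replicate 2 (897.3) and 10 Gy replicate 3 (867.3), were also the highest of their groups for all 3 members.

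**Figure D4:**
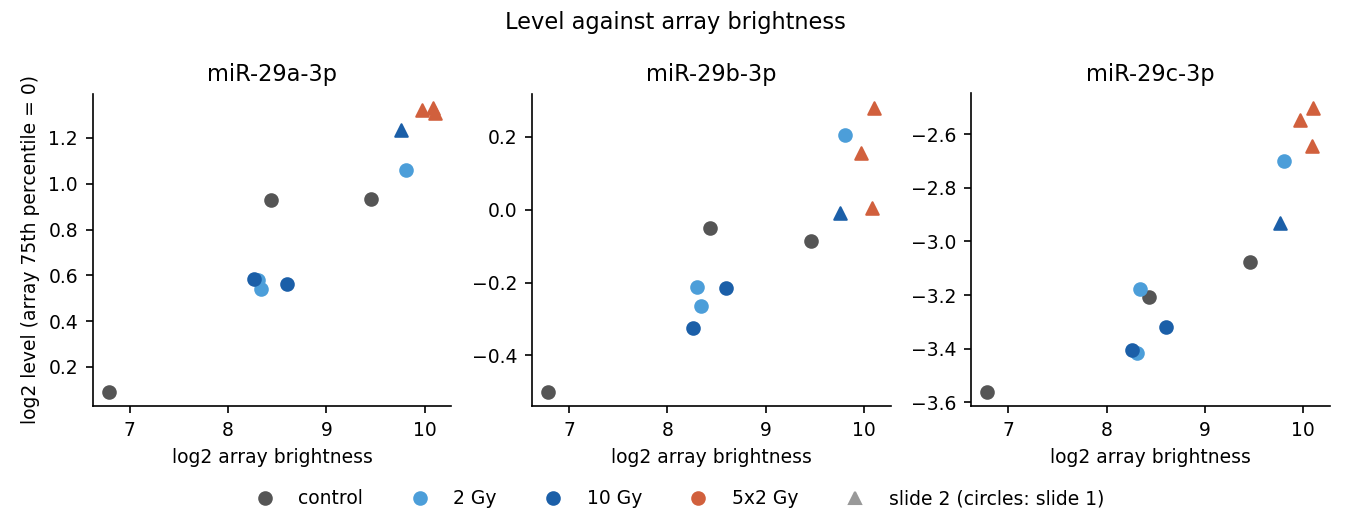
Log2 level of each miR-29 guide strand against log2 array brightness (the 75th percentile of detected probes) for the 12 arrays, coloured by group, with slide 1 as circles and slide 2 as triangles. Levels rise with brightness for all 3 members (r = 0.956, 0.905 and 0.919), and the 5x2 Gy arrays sit at the bright end.

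With brightness as a covariate, the log2 difference between 5x2 Gy and control was 0.01 for miR-29a-3p, -0.01 for miR-29b-3p and 0.24 for miR-29c-3p (limma adjusted p = 1, 1 and 0.193). With slide as a block, where 10 Gy links the slides, it was 0.01, 0.10 and 0.29 (limma adjusted p = 1, 1 and 0.788). No slide held both control and 5x2 Gy arrays, so no within-slide value of this difference could be had. The slide fit rests on 10 Gy replicate 3, the only 10 Gy array on slide 2. Brightness, slide and group moved together in these arrays, and beyond these fits their parts in the higher miR-29 levels were not tested.

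**Figure D5:**
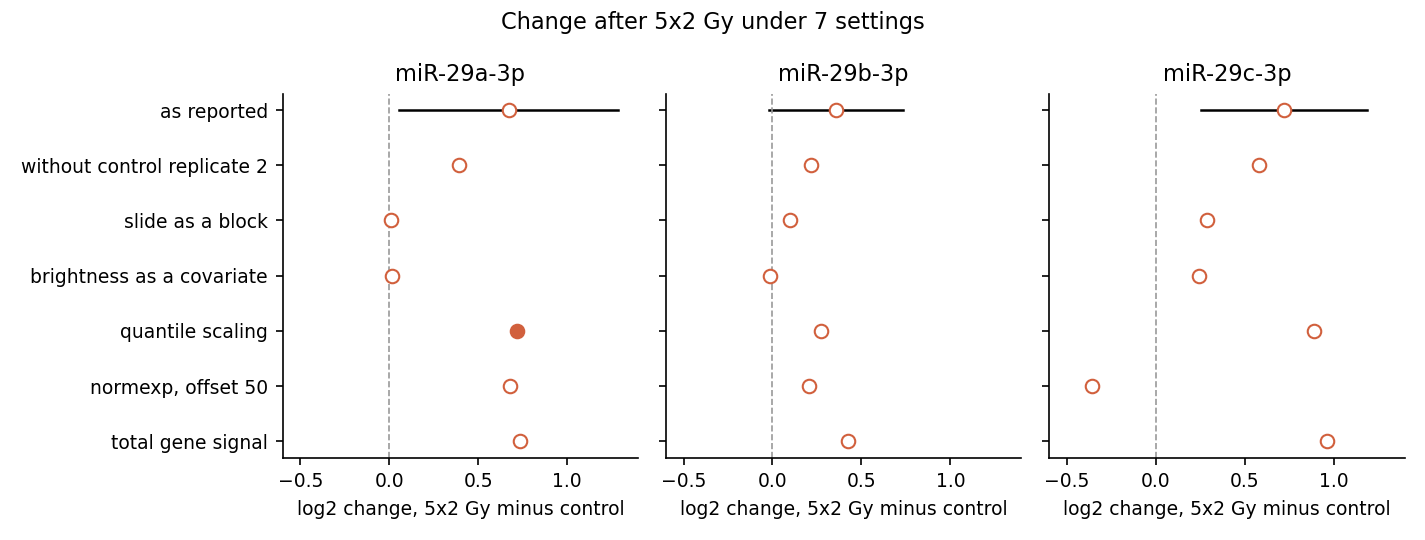
Log2 change of each miR-29 guide strand between 5x2 Gy and control under 7 settings, with the 95% interval of the reported fit as a line. A filled point passes a limma adjusted p of 0.05. The change of miR-29a-3p lies near 0 with slide as a block or brightness as a covariate. That of miR-29b-3p lies near 0 with brightness and above 0, but lower than reported, with slide. That of miR-29c-3p lies at 0.29 with slide and 0.24 with brightness.

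The passenger strands gave little signal. The passenger strand of Mir29b-1, miR-29b-1-5p, was tested through 1 probe and was detected on 1, 3, 1 and 3 of the 3 arrays of control, 2 Gy, 10 Gy and 5x2 Gy. On all 5x2 Gy arrays its scaled signal lay at the floor (log2 level -4.06), so its fitted change of -0.28 against control is no measured size, and it passed in no comparison. miR-29a-5p and miR-29c-5p were detected on 0 arrays.

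The miRNAs most like each member were named as the 3 with the highest Pearson r over the 12 arrays among the other 70 miRNAs above the floor on all arrays. For miR-29a-3p these were miR-29c-3p (r = 0.917), miR-103-3p (0.915) and miR-29b-3p (0.909). For miR-29b-3p they were miR-29c-3p (r = 0.926), miR-29a-3p (0.909) and miR-106b-5p (0.893), and for miR-29c-3p they were miR-26a-5p (r = 0.961), miR-29b-3p (0.926) and miR-29a-3p (0.917). Each member thus had both others among its nearest 3, as a description of arrays that share brightness. Without control replicate 2 the correlations between members were 0.863 to 0.913.

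miRNAs with roles near those of miR-29 were read from lists. Of the list for DNA methylation and chromatin regulators, 6 of 9 were tested and 1 was higher after 5x2 Gy than in control, where 12.7% of all tested miRNAs were. This was miR-26a-5p, known for targeting the histone methyltransferase Ezh2, at a log2 change of 0.44 (limma adjusted p = 0.0354). Of this list miR-148b-3p and miR-152-3p, each detected on 4 arrays, lay at the floor in every group, so neither could be called with this scaling. The list had a median change of 0.22, against 0.0004037 for all tested, and both medians include miRNAs held at the floor. Of the list for collagen, fibrosis and TGF-beta, 9 of 14 were tested, 4 were higher after 5x2 Gy and 0 lower, beside the same 12.7% of all tested, with a median change of 0.26. The list medians were 0.19 and 0.26 without control replicate 2.

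Those 4 were miR-199a-5p and miR-214-3p, of a locus known for activity in fibroblasts and fibrosis, with log2 changes of 0.33 and 0.46, and miR-30b-5p and miR-30c-5p, with 0.39 and 0.26 (limma adjusted p = 0.0103, 0.0407, 0.0150 and 8.93e-05). On the same list miR-199a-3p changed by 0.35 after 5x2 Gy without passing (limma adjusted p = 0.114), and by 0.36 after 10 Gy. miR-30c-5p was detected on 5 arrays and entered the test through the 5x2 Gy group. It lay at the floor on all control, 2 Gy and 10 Gy arrays. Its fitted change is therefore no measured size, and its p rests on floored values without spread. With normexp, which shifted all miRNAs to a median of -0.74, the 5 called miRNAs of these lists lay between -0.019 and -0.75 and none passed. With slide as a block miR-30c-5p alone of the 5 passed, with the same limit of floored values. The array control replicate 2 mattered for miR-26a-5p and miR-214-3p, which missed the threshold without it (limma adjusted p = 0.0633 and 0.0822). In both lists 0 passed after 2 Gy or 10 Gy. Another list was of 6 entries often traced to rRNA or tRNA or named as rich in G and C, which was not checked here. Its median log2 change was -0.61 after 5x2 Gy, with 0 called. This was, without control replicate 2, -0.96 with 2 lower, miR-709 and miR-1224-5p (limma adjusted p = 0.0198 and 0.0245), and with brightness as a covariate -1.37 with 3 lower. Its mean level was -1.75 to 0.06 on control and -1.50 to -1.39 on 5x2 Gy arrays, and its part in the miR-29 results was not tested.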

How the data were processed

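Scanner files of 12 arrays (4 groups of 3) were used. The deposited spot intensity is, per the file headers, a processed signal from which background was subtracted and spatial trends removed. The submitters' processing notes name Agilent Feature Extraction 10.7.3.1. The deposited spot flags (0 or 1) served as filters. A series table of log2 values deposited by the authors equalled the log2 processed signal shifted by 1 constant per array (column medians -0.19 to 1.14, column means 1.98); why it was shifted is not given in the sources used here. The genome build named in the headers is mm9.

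From the 11540 spots that were no controls, outlier spots were left out and spots of a probe averaged. A probe counted as detected where the flag for well above background was set on more than a share of 0.5 of its spots. Each array was divided by the 75th percentile of the 78 probes detected on all arrays, floored at 0.0598 of it, and put on a log2 scale; no spot was saturated. Probes had to be detected on 3 or more arrays, and those of a miRNA were averaged. To enter the tests, a miRNA also needed some group with detection on each of its 3 arrays, which left 118 miRNAs. On each 5x2 Gy array 118 of these were detected, against 75, 48 and 97 on control replicates 1 to 3. Every tested miRNA thus met this rule in the 5x2 Gy group. limma 3.58.1 (lmFit, eBayes) was fitted to all 12 arrays, with Benjamini-Hochberg adjustment within each comparison and a threshold of 0.05; on simulated data the fit was tested first. Differences between members used exact permutation tests, and only array number limits their precision. Replicate numbers name samples only. Members named are all 3, with the 3 miRNAs most like each. Sequences come from RefSeq, where 466 of 566 mouse entries and 3 of 3 members matched by name.

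Alternatives were other scalings, floors, filters and probe rules, slide or replicate number as a block, brightness as a covariate, leaving out each array, the authors' table and normexp (offset 50), for which the median spot signal and median background were used because the files hold no mean signal column. The members and lists were chosen with earlier results of these data known.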

Additional observations from a re-analysis of the deposited data

How the results depend on the processing

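For the change between 5x2 Gy and control, some settings brought members past the threshold (limma). Scaling over all probes gave 2.31, 2.00 and 1.96 for miR-29a-3p, miR-29b-3p and miR-29c-3p, no scaling 2.50, 2.19 and 1.97, and the values the authors deposited 2.11, 1.80 and 2.23; the median of all miRNAs was then 1.344, 1.345 and 1.646 (0.0004037 as reported). Quantile scaling gave 0.72 for miR-29a-3p and a floor 4 times lower 0.79 for miR-29c-3p (medians of all 0.19 and 0.23), whereas a doubled floor gave 0.39 for miR-29c-3p (limma adjusted p = 0.0501). The scaling over all probes also brought miR-29c-3p past the threshold against 10 Gy (1.77) and in the F test (F = 6.51).

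Directions turned as follows. With normexp, miR-29c-3p gave -0.18, -0.26 and -0.36 for 2 Gy, 10 Gy and 5x2 Gy against control and -0.093 against 10 Gy, and miR-29b-3p -0.046 after 10 Gy. Normexp shifted all miRNAs, to medians of -0.25, -0.30 and -0.74 against control and -0.40 against 10 Gy, and each of these values lay above its median. After 10 Gy, miR-29c-3p gave -0.031 with the floor doubled and -0.080 with the brightest probe; with slide as a block or slide 1 alone the members gave -0.077, -0.057 and -0.081. With brightness as a covariate they gave -0.090, -0.10 and -0.11 after 10 Gy, miR-29a-3p -0.14 after 2 Gy and miR-29b-3p -0.012 after 5x2 Gy. Without control replicate 2 and with slide as a block, chosen after seeing the data, miR-29a-3p and miR-29b-3p gave -0.20 and -0.022 at 2 Gy, the members -0.36, -0.20 and -0.22 at 10 Gy, and miR-29a-3p and miR-29b-3p -0.27 and -0.043 after 5x2 Gy. The causes were not tested.

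Differences between members that turned were, with normexp, 0.019, 0.26 and 0.24 after 2 Gy (miR-29a-3p to miR-29b-3p, miR-29a-3p to miR-29c-3p and miR-29b-3p to miR-29c-3p), 0.22 after 10 Gy (miR-29b-3p to miR-29c-3p), and 1.03 and 0.57 after 5x2 Gy (miR-29a-3p and miR-29b-3p to miR-29c-3p). With the floor doubled they were 0.029 and 0.075 at 2 Gy, 0.061 at 10 Gy and 0.28 with 5x2 Gy, with the brightest probe 0.019, 0.054, 0.12 and 0.083, and with total gene signal, chosen after seeing the data, -0.095 after 10 Gy (miR-29a-3p to miR-29c-3p).

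Leaving out 1 array at a time, the changes of miR-29a-3p, miR-29b-3p and miR-29c-3p ranged from -0.20 to 0.22, -0.026 to 0.21 and -0.015 to 0.34 at 2 Gy, from -0.14 to 0.28, -0.11 to 0.11 and -0.081 to 0.17 at 10 Gy, from 0.39 to 0.81, 0.22 to 0.44 and 0.58 to 0.82 after 5x2 Gy, and from 0.41 to 0.75, 0.26 to 0.42 and 0.56 to 0.80 for 5x2 Gy against 10 Gy. The adjusted p of miR-29c-3p between 5x2 Gy and control ranged from 0.0269 to 0.157 and passed in 2 of these 12 fits, without 2 Gy replicate 2 (0.0269) and without 10 Gy replicate 3 (0.0474), while its change there was 0.72. The F values ranged from 1.63 to 3.85, 0.94 to 3.23 and 3.09 to 9.11. Differences between members, in the order above, ranged from -0.18 to 0.032, -0.25 to -0.0065 and -0.16 to -0.012 at 2 Gy, from -0.023 to 0.21, -0.059 to 0.18 and -0.074 to 0.024 at 10 Gy, and from 0.18 to 0.39, -0.19 to 0.054 and -0.40 to -0.32 after 5x2 Gy.

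Counts of miRNAs called moved as well. In the F test (7 as reported) they were 77 with scaling over all probes, 0 with quantile scaling, 20 with no scaling, 2 with normexp, 3 with the floor doubled, 3 with no detection filter, 14 with brightness, 1 with slide as a block, 3 with the replicate block, 4 in the authors' table, 11 with total gene signal, 3 without control replicate 2 and with slide as a block, and 2 to 14 leaving out 1 array. Between 5x2 Gy and control (15) they were 99, 85 and 87 with scaling over all probes, no scaling and the authors' table, 5 with normexp, 25 and 7 with the lower and the doubled floor, 6 with no detection filter, 28 with brightness, 1 with slide as a block, 3 without control replicate 2 and with slide as a block, and 7 to 16 leaving out 1 array. These were 15 higher and 0 lower as reported, 0 and 5 with normexp, 16 and 5 with the brightest probe, 16 and 2 with quantile scaling, 22 and 3 with the lower floor, 21 and 7 with brightness, 2 and 1 without control replicate 2 and with slide as a block, and 10 and 1, 10 and 5, and 12 and 4 without control replicates 1, 2 and 3. Between 5x2 Gy and 10 Gy (3) they were 78 with scaling over all probes, 25 with no scaling, 0 with quantile scaling, normexp or the authors' table, 1 with the floor doubled, no detection filter, total gene signal or slide as a block with or without control replicate 2, 9 on slide 2 alone and 1 to 3 leaving out 1 array. After 10 Gy (1) they were 0 with quantile scaling, no scaling, no detection filter, slide as a block, slide 1 alone, the replicate block or the authors' table, 2 with the brightest probe, only the groups compared or total gene signal, 26 with brightness, 9 without control replicate 2 and with slide as a block, and 0 to 7 leaving out 1 array. After 2 Gy (0) they were 1 with the brightest probe, 6 with brightness, 2 without control replicate 2 and with slide as a block, and 0 to 3 leaving out 1 array.

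The labels number the replicates in each group, but arrays of the same number deviated together in some pairs of groups and apart in others (r of -0.905 to 0.777). With the replicate block 10 miRNAs were called between 5x2 Gy and control, and miR-29c-3p gave 0.72 (limma adjusted p = 0.0921). Signal over background limits miR-29c-3p, whose 2 probes were not above background on 5 and 2 arrays.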
